A study of Mus musculus with 22 samples.

Results

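The 10 genes of adenosine signalling described here were followed in the kidneys of mice given cisplatin, KW6002 or both. They were taken by gene name, with earlier results of these data known. The receptor genes are Adora1, Adora2a, Adora2b and Adora3, and the ectoenzyme genes are Entpd1 and Nt5e. Ada, Adk and Dpp4 are genes of adenosine removal, and Slc29a1 is the transporter gene. These 10 members are among the 32858 genes in the count table. Of them, 9 were among the 17131 genes with enough counts for a test. Adora3 was the exception, with 0 to 11 counts per library. Each of the 9 tested members had at least 32 counts in every library, so none passed the filter through the cisplatin libraries alone.

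Poly(A) RNA of the kidney was sequenced in 22 male C57Bl6/J mice aged 8 to 10 weeks, 1 library per mouse. The groups were vehicle (n = 5), KW6002 (n = 6), cisplatin (n = 5) and cisplatin plus KW6002 (n = 6). Cisplatin, a platinum drug that damages the renal tubule, was injected at 3 mg/kg on 6 successive days, and the mice were killed on day 8, 72 hours past the final injection. KW6002 (istradefylline), a selective antagonist of the A2A receptor encoded by Adora2a, was injected daily at 3 mg/kg from day -5 to day 7. The vehicle was the carrier of KW6002, made of 15% DMSO, 15% cremophor and 70% saline, and the sources used here do not state whether mice on cisplatin alone also received it. The sample titles name no transgene, deletion or tumour for these mice, and the whole kidney was sampled. The study places its kidney sequencing in the repeated-injection (subchronic) cisplatin protocol, whereas a later figure legend names a syngeneic lung tumour model for kidney values.

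Extracellular adenosine is formed largely from released ATP. CD39 (Entpd1) cuts ATP and ADP to AMP, and CD73 (Nt5e) cuts AMP to adenosine, which then binds G protein-coupled receptors. The A1 and A3 receptors couple to inhibitory G proteins and lower cAMP, whereas the A2A and A2B receptors couple to stimulatory G proteins and raise it. Adenosine is cleared when equilibrative transporters such as ENT1 (Slc29a1) carry it into cells, where adenosine kinase (Adk) phosphorylates it and adenosine deaminase (Ada) converts it to inosine. The protease DPP4, also known as CD26, anchors adenosine deaminase at the cell surface of several cell types and is abundant on the brush border of the proximal tubule. In the kidney, adenosine constricts the afferent arteriole through A1 receptors and takes part in tubuloglomerular feedback.

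The libraries held 26471762 to 40510754 counted reads. The mouse numbers in the labels fell into a 300s and a 500s series: 3 of the 5 vehicle and 3 of the 6 KW6002 mice were numbered in the 300s, and all other mice in the 500s. Levels are given as CPM, the read count relative to the library size scaled by the trimmed mean of M-values (TMM). The kidney markers were present: the summed level of 10 proximal tubule genes was 35547 to 40030 CPM in vehicle kidneys, 2032 to 3685 CPM after cisplatin and 6366 to 11685 CPM after cisplatin plus KW6002. The 2 tubular injury genes (Lcn2 and Havcr1) summed to 5.29 to 7.02 CPM, 1126 to 2136 CPM and 299 to 653 CPM in the same groups. Marker sums of T cells, B cells and neutrophils stayed at or below 16.6 CPM in vehicle, cisplatin and cisplatin plus KW6002 libraries. In bulk kidney RNA, fewer cells of a type and less RNA per cell cannot be told apart.

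All 10 members are protein-coding genes (mm10, GENCODE vM21). The receptor genes are Adora1 (ENSMUSG00000042429) at chr1:134199223-134235431 on the minus strand, Adora2a (ENSMUSG00000020178) at chr10:75316877-75334784 on the plus strand, Adora2b (ENSMUSG00000018500) at chr11:62248984-62266453 on the plus strand and Adora3 (ENSMUSG00000000562) at chr3:105870858-105908926 on the plus strand. The ectoenzyme genes are Entpd1 (ENSMUSG00000048120) at chr19:40612366-40741602 on the plus strand and Nt5e (ENSMUSG00000032420) at chr9:88327197-88372092 on the plus strand. The genes of removal and transport are Ada (ENSMUSG00000017697) at chr2:163726584-163750239 on the minus strand, Adk (ENSMUSG00000039197) at chr14:21052574-21448569 on the plus strand, Dpp4 (ENSMUSG00000035000) at chr2:62330073-62412231 on the minus strand and Slc29a1 (ENSMUSG00000023942) at chr17:45585200-45599606 on the minus strand. Tmigd3 shares 20.9% of the exon bases of Adora3 on the same strand and held 3 counts in all, and the antisense genes over Dpp4 and Slc29a1 held 0 and 8 counts.

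To show the DNA in front of the members that changed most, the 250 bases before the RefSeq start are printed for the 4 members that passed an adjusted p of 0.01 and a log2 fold change of 1 between cisplatin and vehicle and whose window held no annotated exon (RefSeq, GRCm38.p6, 5′ to 3′ on the strand of the gene). Capitals mark matches, on either strand, to ACGTG and GCGTG (cores of hypoxia response elements), TGACGTCA and TGACG (the full and partial cAMP response element, the second contained in the first), TGANTCA (AP-1) and GGGCGG (the GC box). Where a gene had several starts, the most upstream was used. The windows lie at chr1:134235458-134235707 (minus strand, Adora1), chr11:62248734-62248983 (plus strand, Adora2b), chr19:40612116-40612365 (plus strand, Entpd1) and chr2:163750240-163750489 (minus strand, Ada).
Adora1: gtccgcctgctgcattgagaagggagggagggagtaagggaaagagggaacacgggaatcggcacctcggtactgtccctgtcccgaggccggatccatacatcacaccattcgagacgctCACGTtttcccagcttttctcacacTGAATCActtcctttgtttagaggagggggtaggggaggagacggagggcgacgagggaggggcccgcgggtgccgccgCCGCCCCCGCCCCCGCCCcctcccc
Adora2b: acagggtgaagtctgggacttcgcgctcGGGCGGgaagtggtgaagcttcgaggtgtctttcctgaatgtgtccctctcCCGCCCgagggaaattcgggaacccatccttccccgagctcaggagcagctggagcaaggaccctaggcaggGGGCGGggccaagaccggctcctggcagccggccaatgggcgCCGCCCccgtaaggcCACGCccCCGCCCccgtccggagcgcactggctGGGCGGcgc
Entpd1: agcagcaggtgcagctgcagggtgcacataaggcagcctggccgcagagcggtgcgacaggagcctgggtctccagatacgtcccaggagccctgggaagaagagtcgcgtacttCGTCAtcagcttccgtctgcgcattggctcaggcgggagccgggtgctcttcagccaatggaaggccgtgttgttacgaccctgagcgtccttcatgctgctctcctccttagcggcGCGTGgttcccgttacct
Ada: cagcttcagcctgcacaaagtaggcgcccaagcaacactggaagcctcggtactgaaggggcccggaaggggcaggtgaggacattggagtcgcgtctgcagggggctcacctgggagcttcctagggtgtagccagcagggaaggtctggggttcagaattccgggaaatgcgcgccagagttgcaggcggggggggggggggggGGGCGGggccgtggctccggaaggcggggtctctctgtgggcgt

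Of the 10 members, 9 had a promoter window in the RefSeq table. ACGTG lay in 1 of the 9 windows (Adora1, at position -129 from the start) and in 16.6% of all 32851 windows of this length. GCGTG lay in 3 windows (Adora2b at -42, Entpd1 at -18 and Nt5e at -138) and in 28.2% of all windows. TGACG was found in 2 windows (Entpd1 at -135, Adk at -12) against 17.8% of all windows, and TGANTCA in 2 windows (Adora1 at -104, Adora3 at -98) against 6.75%. GGGCGG was present in 5 windows (Adora1, Adora2b, Nt5e, Ada and Adk), with 6 matches in Adora2b, and in 32.7% of all windows. The full element TGACGTCA was in 0 of the 9 windows and in 1.55% of all windows. Such matches describe letters and do not show that a factor binds there.

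The first comparison, cisplatin against vehicle, asked how the adenosine system of the kidney changed with the injury. Adora1, Adora2a, Adora2b, Entpd1, Nt5e and Ada rose, Adk and Dpp4 fell, and Slc29a1 did not pass the test. Thus 8 of the 9 tested members passed an adjusted p of 0.05 (edgeR quasi-likelihood test, Benjamini-Hochberg adjustment over all 17131 genes). Because cisplatin moved 70.5% of all tested genes past the same threshold, 34.6% higher and 35.9% lower, the count alone says little about the members, and their sizes are given instead. At an adjusted p of 0.01 with a log2 fold change beyond 1 there were 5 members, all higher, against 24.1% of all genes. The median log2 fold change was 1.04 over the 9 members and -0.01 over all tested genes.

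**Figure D1:**
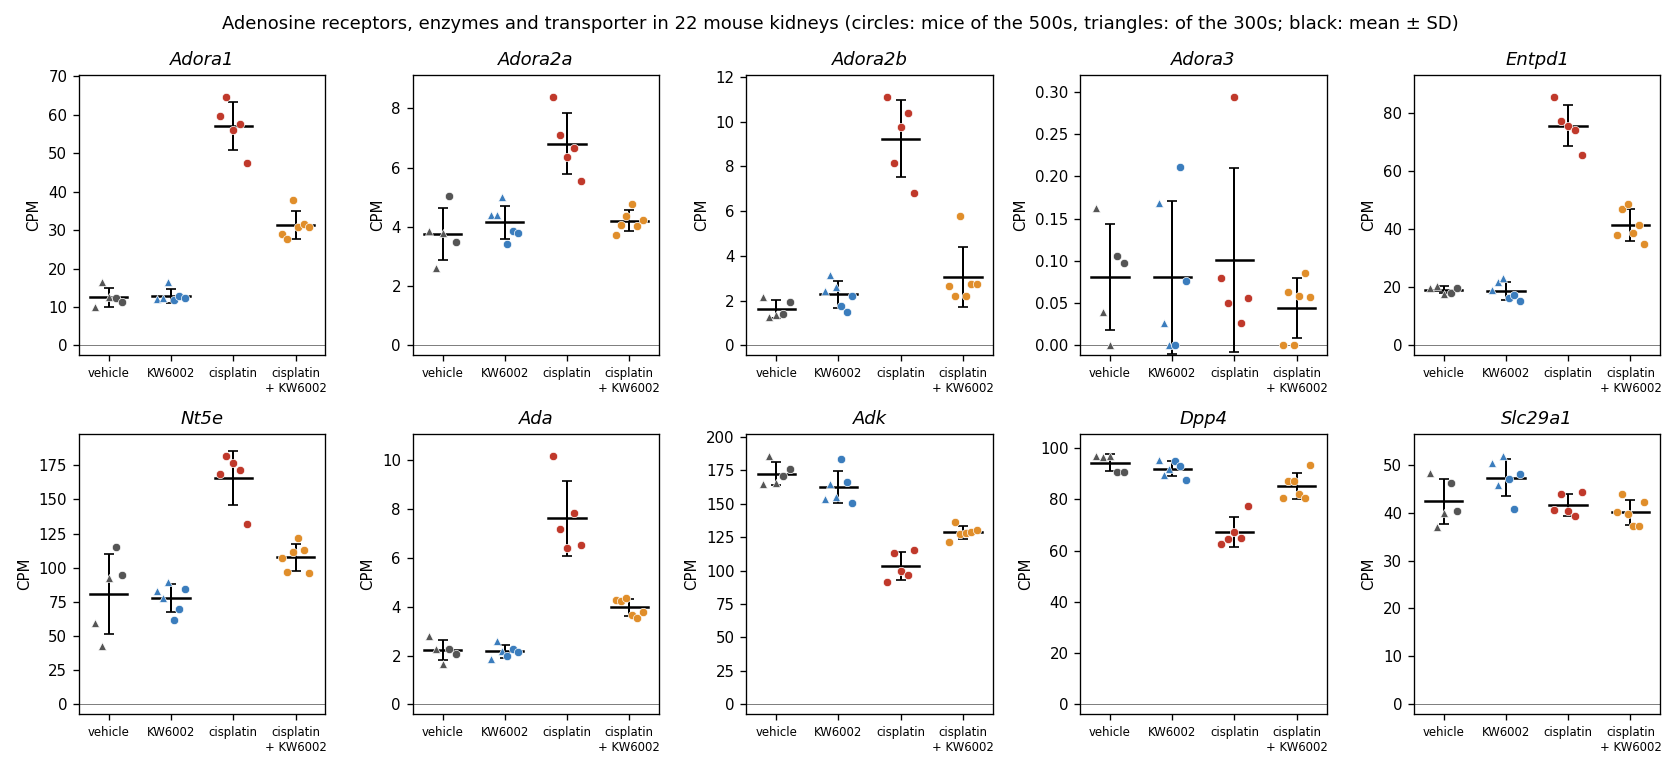
Level of each of the 10 members in every mouse (vertical axis, CPM, linear, with a grey line at 0 in each panel), by group on the horizontal axis; circles are mice numbered in the 500s, triangles mice numbered in the 300s, and black lines the mean ± SD. Adora1, Adora2a, Adora2b, Entpd1, Nt5e and Ada lie highest in the 5 cisplatin mice, whereas Adk and Dpp4 lie lowest there and Adora3 stays near 0.

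Among the receptors, Adora1, which encodes the receptor most tied to afferent arteriolar tone, was measured at 9.94, 16.5, 12.5, 12.3 and 11.4 CPM in the vehicle mice. It reached 59.8, 64.5, 56.1, 57.5 and 47.5 CPM in the cisplatin mice. The highest vehicle kidney thus lay far below the lowest cisplatin kidney. Adora1 rose 4.57-fold (95% interval 3.85 to 5.41, log2 fold change 2.19 ± 0.118 (SE), adjusted p = 1.86e-13). About 20.1% of its exon bases overlap exons of Mybph on the other strand, and Mybph held 31 counts over all 22 libraries.

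Adora2a, the gene of the receptor that KW6002 blocks, was low in vehicle kidneys, at 3.85, 2.61, 3.80, 5.04 and 3.48 CPM. After cisplatin it stood at 8.36, 7.08, 6.37, 6.66 and 5.55 CPM. Every cisplatin kidney exceeded every vehicle kidney, although the nearest pair was 0.51 CPM apart. The rise was 1.81-fold (95% interval 1.48 to 2.21, log2 fold change 0.86 ± 0.139 (SE), adjusted p = 9.68e-06). Among the receptors tested it was the smallest change, and 69.8% of all tested genes had a smaller absolute change.

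Adora2b, whose product binds adenosine with low affinity and so responds mainly when adenosine is abundant, was the scarcest of the 3 tested receptor genes in vehicle kidneys, at 2.17, 1.28, 1.38, 1.41 and 1.95 CPM. It was measured at 11.1, 8.14, 9.75, 10.4 and 6.82 CPM after cisplatin. The lowest cisplatin kidney lay 4.65 CPM above the highest vehicle kidney. Adora2b rose 5.60-fold (95% interval 3.92 to 8.00, log2 fold change 2.49 ± 0.248 (SE), adjusted p = 6.50e-09), a larger absolute change than that of 94.0% of all tested genes. Adora3 was counted at 5, 1, 0, 3 and 3 reads in the vehicle libraries and at 3, 2, 11, 1 and 2 reads in the cisplatin libraries, too few for a comparison. At this depth a level below 0.0753 to 0.120 CPM, the value of 3 counts in the deepest and the shallowest of those libraries, could not have been told from 0.

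Both ectoenzyme genes rose. Entpd1 was tightly grouped in vehicle kidneys, at 19.8, 20.4, 17.8, 18.2 and 19.9 CPM. In the cisplatin kidneys it was found at 85.5, 77.5, 75.8, 74.1 and 65.8 CPM. No cisplatin kidney came near the vehicle range, and the change was 3.94-fold (95% interval 3.38 to 4.59, log2 fold change 1.98 ± 0.106 (SE), adjusted p = 1.55e-13).

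Of the tested members Nt5e varied most among the vehicle mice relative to its mean, at 59.5, 42.5, 92.2, 115 and 94.6 CPM, and the 2 highest values came from the 2 mice numbered in the 500s. In cisplatin kidneys it was 168, 182, 176, 172 and 132 CPM. The groups did not overlap, with the lowest cisplatin and the highest vehicle kidney 16.5 CPM apart. Nt5e rose 2.05-fold (95% interval 1.59 to 2.64, log2 fold change 1.04 ± 0.176 (SE), adjusted p = 1.67e-05). Within the mice numbered in the 500s (2 vehicle, 5 cisplatin) its log2 fold change was 0.66 (adjusted p = 3.43e-04).

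The genes that remove adenosine went in different directions. Ada, the deaminase, was scarce in vehicle kidneys, at 2.79, 2.29, 1.65, 2.25 and 2.08 CPM. It stood at 10.2, 7.18, 6.42, 7.87 and 6.51 CPM after cisplatin, with no overlap and a rise of 3.45-fold (95% interval 2.81 to 4.23, log2 fold change 1.79 ± 0.142 (SE), adjusted p = 1.36e-10). Adk, the kinase that returns adenosine to AMP, was the most abundant member per length in vehicle kidneys, at 165, 186, 166, 170 and 176 CPM. Its level was 91.6, 113, 99.7, 96.6 and 115 CPM after cisplatin. Hence all cisplatin kidneys lay below all vehicle kidneys, and Adk fell to 0.599 of the vehicle level (95% interval 0.547 to 0.656, log2 fold change -0.74 ± 0.0629 (SE), adjusted p = 4.38e-10).

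Dpp4 was nearly constant among vehicle mice, at 96.8, 96.6, 96.8, 90.8 and 90.7 CPM. Cisplatin kidneys held 62.5, 64.5, 67.4, 64.8 and 77.2 CPM of Dpp4. The ranges did not meet, and Dpp4 fell to 0.713 of the vehicle level (95% interval 0.661 to 0.770, log2 fold change -0.49 ± 0.0531 (SE), adjusted p = 2.64e-08). Slc29a1, the transporter gene, ranged from 36.9 to 48.3 CPM in vehicle kidneys and from 39.2 to 44.3 CPM in cisplatin kidneys. The cisplatin range lay within the vehicle range, and its log2 fold change of -0.02 had a 95% interval of -0.17 to 0.12 (adjusted p = 0.777). When counts were scaled by library size alone, which moved the median of all genes by 0.20, Slc29a1 stood at 0.19 (adjusted p = 0.0196) beside that shift.

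In all, 8 of the 9 tested members had no overlap between the cisplatin and vehicle groups, which held for 55.3% of all tested genes. Within the mice numbered in the 500s, the same 8 members passed the test with directions kept. There Adora1 stood at a log2 fold change of 2.26, Adora2a at 0.67 (adjusted p = 0.00161), Adora2b at 2.45, Entpd1 at 1.98, Ada at 1.81, Adk at -0.75 and Dpp4 at -0.44.

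Markers of several cell types moved with these changes. All 10 proximal tubule genes fell with cisplatin, as Adk and Dpp4 did. So did all 4 genes of the thick ascending limb (6424 to 10196 CPM summed in vehicle and 2049 to 2358 CPM in cisplatin kidneys) and all 6 red blood cell genes (138 to 461 CPM and 4.61 to 16.6 CPM). Lower as well were 4 of the 5 tested T cell, 3 of the 4 B cell, 2 of the 6 distal and collecting duct and 3 of the 5 podocyte genes, and 1, 0, 1 and 2 genes of these lists, in that order, were higher. The 6 fibroblast and pericyte genes summed to 171 to 370 CPM in vehicle and 703 to 908 CPM in cisplatin kidneys, with 5 of 6 higher. Endothelial genes, which mark cells that carry CD39, summed to 495 to 559 CPM and 495 to 649 CPM, with 2 of 7 higher and 2 lower. Macrophage genes summed to 186 to 447 CPM (median 202) and 241 to 344.97 CPM (median 247), the second range within the first, with 1 of 8 higher and 2 lower. Among all tested genes 34.6% were higher and 35.9% lower with cisplatin. The counts of distal and collecting duct, endothelial and macrophage genes did not exceed these shares. The part of these shifts in cell type markers in the changes of the members was not tested.

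Divided by exon length, levels can be compared roughly between genes. The length is that of all annotated exons of a gene, and the transcripts present in kidney may be shorter. The order given here and the receptor shares rest on this length. In vehicle kidneys the order was Adk (20.2 ± 1.01 CPM per kb, SD, n = 5), Dpp4 (14.9 ± 0.517), Slc29a1 (10.6 ± 1.17), Nt5e (9.39 ± 3.40), Entpd1 (3.45 ± 0.208), Adora1 (2.17 ± 0.424), Adora2a (1.23 ± 0.285), Ada (1.10 ± 0.205), Adora2b (0.888 ± 0.215) and Adora3 (0.0217 ± 0.0168). Neighbours whose mean ± SD overlapped were Slc29a1 and Nt5e, Adora2a and Ada, and Ada and Adora2b. In cisplatin kidneys the order became Nt5e (19.3 ± 2.31 CPM per kb), Entpd1 (13.6 ± 1.27), Adk (12.1 ± 1.22), Dpp4 (10.6 ± 0.921), Slc29a1 (10.4 ± 0.574), Adora1 (9.87 ± 1.08), Adora2b (5.01 ± 0.939), Ada (3.81 ± 0.768), Adora2a (2.22 ± 0.338) and Adora3 (0.0272 ± 0.0292). The 5 genes from Entpd1 to Adora1 each overlapped the next in that order, and so did Adora2b and Ada. Both ectoenzyme genes thus stood above the kinase in cisplatin kidneys, with Entpd1 and Adk within their spread, whereas both had stood below it in vehicle kidneys.

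Summed over the 4 receptor genes, receptor mRNA was 4.30 ± 0.181 CPM per kb in vehicle kidneys (SD, n = 5), 4.86 ± 0.661 in KW6002 kidneys (n = 6), 17.1 ± 2.02 in cisplatin kidneys (n = 5) and 8.45 ± 1.36 in kidneys given both (n = 6). The cisplatin and vehicle sums did not overlap (exact permutation test, two-sided, p = 0.00794, the smallest that 5 against 5 allows, adjusted p = 0.0208 over 8 tests of shares and sums). The difference between both drugs and cisplatin alone also had no overlap (exact permutation p = 0.00433, the smallest possible, adjusted p = 0.0208). Adora1, Adora2a and Adora2b each had no overlap in either comparison, and Adora3 added almost nothing to the sums. The sums were therefore bound not to overlap, and these p-values add no separate result.

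The makeup of this receptor mRNA changed as well. Adora2a made up 19.3 to 36.0% of it in vehicle kidneys (mean 28.5 ± 6.07%, SD, n = 5) and 12.1 to 14.3% in cisplatin kidneys (12.96 ± 0.871%, n = 5), a lower share without overlap (exact permutation p = 0.00794, adjusted p = 0.0208) although its own level was higher. With both drugs it was 16.5 ± 2.25% (n = 6), above cisplatin alone (exact permutation p = 0.0173, adjusted p = 0.0231) with overlapping ranges. Adora2b made up 20.8 ± 5.53%, 29.1 ± 3.16% and 19.0 ± 4.70% in vehicle, cisplatin and doubly treated kidneys. Its higher share after cisplatin (exact permutation p = 0.0397, adjusted p = 0.0454) no longer passed at an unadjusted 0.05 when any of 6 of the 10 mice was left out (p = 0.0794 each time). With both drugs its share was lower than with cisplatin alone by a difference of -10.1 percentage points (exact permutation p = 0.0130, adjusted p = 0.0208), with overlapping ranges. Adora1 was the largest share throughout, at 50.3 ± 8.99%, 57.8 ± 3.27% and 64.4 ± 2.61%, and the step from vehicle to cisplatin did not pass (exact permutation p = 0.135), although it did at an unadjusted 0.05 without vehicle mouse 2 (p = 0.0159). The step from cisplatin to both drugs, 6.60 percentage points higher, passed with overlapping ranges (exact permutation p = 0.0130, adjusted p = 0.0208). Because the shares are parts of the same sum, they depend on each other, and these tests are not separate results. The levels of Adora1, Adora2a and Adora2b were all lower with both drugs than with cisplatin.

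**Figure D2:**
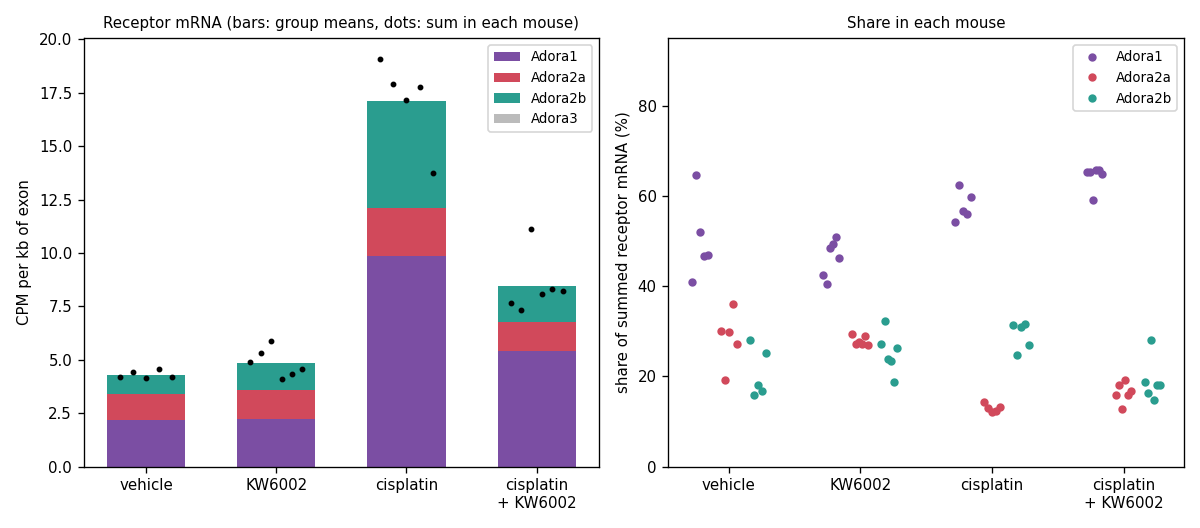
Left, receptor mRNA per kb of exon (vertical axis, CPM per kb) by group, with bars for the group means of Adora1, Adora2a, Adora2b and Adora3 stacked and dots for the sum in each mouse. Right, share of the sum (vertical axis, percent) in each mouse for the 3 tested receptor genes. The sum rises from a mean of 4.30 to 17.1 CPM per kb with cisplatin, and the Adora2a share is at most 14.3% in cisplatin kidneys and at least 19.3% in vehicle kidneys.

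The second comparison, cisplatin plus KW6002 against cisplatin, asked how this state differed when KW6002 was added. Adora1, Adora2a, Adora2b, Entpd1, Nt5e and Ada were lower with KW6002, Adk and Dpp4 were higher, and Slc29a1 did not pass. Here too 8 of 9 members passed an adjusted p of 0.05, against 55.8% of all tested genes (28.6% higher, 27.2% lower). Only Adora2b, 1 of the 9, passed the stricter thresholds, which 10.3% of all genes passed. The median log2 fold change of the 9 members was -0.70, and that of all tested genes 0.01. The 5 cisplatin libraries stand in both comparisons, so a sign that is opposite in the second is partly set by the first, and the values are given side by side without a test of their relation.

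Adora1 was 27.7, 30.9 and 38.0 CPM (lowest, median and highest of 6 mice) with both drugs, below all 5 cisplatin kidneys. Its log2 fold change against cisplatin was -0.87 ± 0.106 (SE, adjusted p = 4.10e-07). Adora2a was 3.74, 4.16 and 4.78 CPM, again below every cisplatin kidney, and its log2 fold change was -0.70 ± 0.131 (SE, adjusted p = 1.02e-04). For the target of the drug, the level in doubly treated kidneys was thus 0.618 of that with cisplatin alone (95% interval 0.512 to 0.745).

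Adora2b fell furthest, to 2.20, 2.70 and 5.76 CPM, with 1 mouse well above the other 5. Its log2 fold change was -1.60 ± 0.220 (SE, adjusted p = 2.12e-06), and 95.4% of all tested genes had a smaller absolute change. Entpd1 stood at 35.0, 40.1 and 48.9 CPM, with a log2 fold change of -0.87 ± 0.0960 (SE, adjusted p = 9.80e-08). Nt5e was 95.9, 109 and 122 CPM, close under the lowest cisplatin kidney of 132 CPM, at a log2 fold change of -0.62 ± 0.166 (SE, adjusted p = 0.00284). Ectonucleotidase mRNA of both steps was therefore lower without overlap between the groups.

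Ada was 3.53, 4.01 and 4.36 CPM with both drugs, at a log2 fold change of -0.94 ± 0.128 (SE, adjusted p = 1.77e-06). Adk was 121, 129 and 136 CPM, above all cisplatin kidneys by a smaller step, with a log2 fold change of 0.32 ± 0.0602 (SE, adjusted p = 1.15e-04). Dpp4 was 80.5, 84.6 and 93.4 CPM, and its log2 fold change was 0.34 ± 0.0510 (SE, adjusted p = 6.58e-06). Slc29a1, at 37.3, 39.9 and 43.9 CPM, had a log2 fold change of -0.06 with a 95% interval of -0.20 to 0.09 (adjusted p = 0.508). Between these groups 8 of 9 members had no overlap, against 37.8% of all tested genes. Beside these changes, 8 of the 10 proximal tubule markers were higher and 5 of the 6 fibroblast and pericyte markers lower than with cisplatin alone. Of the 4 thick ascending limb markers 3 were higher, and of the 7 endothelial markers 3 were lower and 1 higher, with a median sum of 495 CPM against 630 CPM. Among all tested genes 28.6% were higher and 27.2% lower in this comparison. The part of these markers in the result was not tested.

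**Figure D3:**
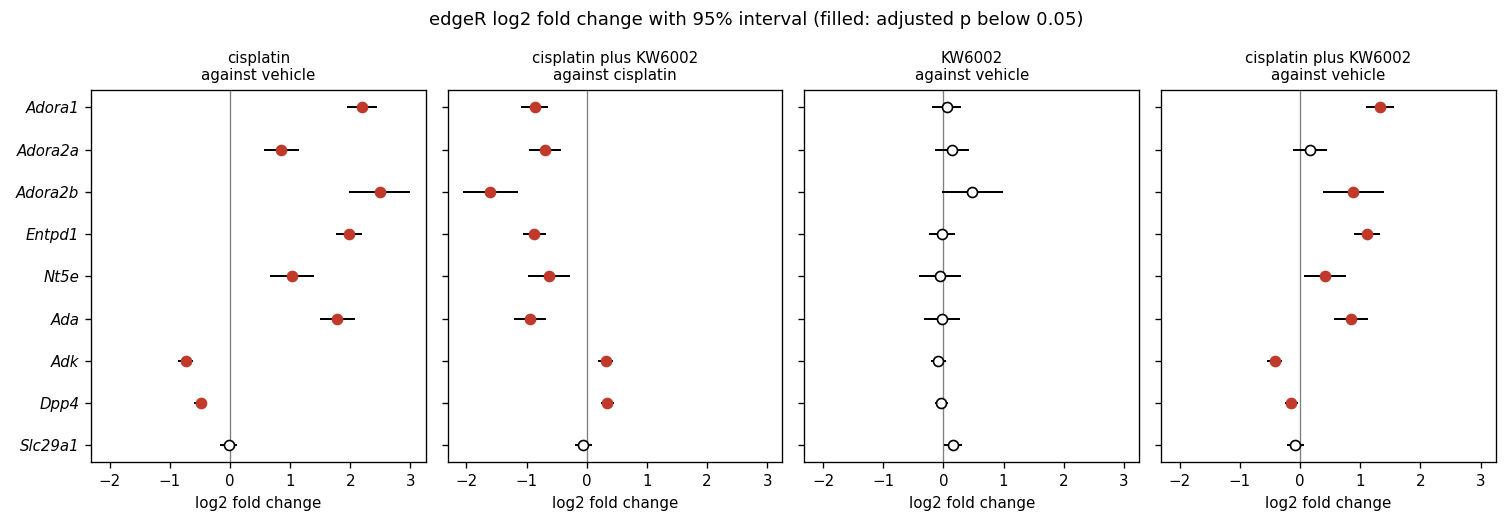
Log2 fold change (horizontal axis) of the 9 tested members in 4 comparisons, with lines for the 95% interval and filled points for an adjusted p below 0.05 in edgeR. Changes reach 2.49 for Adora2b with cisplatin and -1.60 for the same gene when KW6002 was added, whereas no point is filled for KW6002 against vehicle.

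Against vehicle, kidneys given both drugs still held more Adora1 (log2 fold change 1.32 ± 0.114 (SE), adjusted p = 1.55e-09) and more Entpd1 (1.11 ± 0.101, adjusted p = 4.18e-09), the members that passed the stricter thresholds here. Adora2b was also higher (0.88 ± 0.244, adjusted p = 0.00349), as was Ada (0.84 ± 0.138, adjusted p = 1.79e-05), and Adk was lower (-0.42 ± 0.0597, adjusted p = 2.52e-06). These 5 members did not overlap between the groups, against 37.5% of all tested genes. Adora2a, in contrast, did not pass: its log2 fold change was 0.16 with a 95% interval of -0.12 to 0.44 (adjusted p = 0.320), so that a rise of up to 1.36-fold is within the error. Scaled by library size alone, which shifted the median of all genes by 0.16, it stood at 0.32 (adjusted p = 0.0482).

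Nt5e (0.41, adjusted p = 0.0389) and Dpp4 (-0.15, adjusted p = 0.0158, but 0.0083 when scaled by library size alone) passed with overlapping groups. Neither call held within the mice numbered in the 500s, where Nt5e stood at 0.037 (adjusted p = 0.831) and Dpp4 at -0.093 (adjusted p = 0.326). Nt5e also lost its call when either of vehicle mice 1 and 2, the lowest vehicle kidneys for this gene, was left out (0.32, adjusted p = 0.117, and 0.25, adjusted p = 0.113). It lost it as well without doubly treated mouse 1, 3, 4 or 5, with adjusted p of 0.0518 to 0.0760. Slc29a1 did not pass (-0.08, 95% interval -0.22 to 0.06, and 0.077 when scaled by library size alone). In total 7 of 9 members passed (5 higher, 2 lower), 2 at the stricter thresholds, against 59.7% of all genes at the first threshold (29.8% higher, 29.9% lower) and 13.4% at the stricter one.

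KW6002 alone was compared with vehicle to see its effect on the uninjured kidney. No member passed the adjusted threshold (0 of 9, edgeR), where 3 genes, or 0.0175% of those tested, did. DESeq2 also called 0 of 9 members. At an unadjusted p below 0.05 there was 1 member, Slc29a1, of 9 and 11.3% of all tested genes. Slc29a1 was 40.8, 47.5 and 51.8 CPM with KW6002 (log2 fold change 0.16, 95% interval 0.02 to 0.30, unadjusted p = 0.0298, adjusted p = 0.378).

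For the drug target Adora2a, KW6002 kidneys held 3.44, 4.14 and 4.99 CPM, a log2 fold change of 0.14 with a 95% interval of -0.14 to 0.43. Within the mice numbered in the 500s the value was -0.20. Adora1 and Entpd1 were 11.7, 12.4 and 16.6 CPM and 15.4, 18.3 and 23.2 CPM, with intervals of -0.18 to 0.29 and -0.23 to 0.19 on the log2 scale. Adora2b had the widest interval, -0.03 to 0.99 around 0.48, with 1.51, 2.33 and 3.16 CPM. A rise of up to 1.99-fold in that gene was thus within the error. The remaining intervals lay between -0.40 and 0.29 for Nt5e, -0.32 and 0.27 for Ada, -0.21 and 0.04 for Adk, and -0.14 and 0.07 for Dpp4. Within the mice numbered in the 500s (2 vehicle, 3 KW6002), Nt5e stood at -0.55 (adjusted p = 0.157), outside that interval, Entpd1 at -0.22 and Adora2b at 0.12, and none of the 9 members passed.

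Whether KW6002 acted differently in cisplatin-treated and untreated mice was tested as an interaction. It passed for 7 of 9 members (2 higher, 5 lower), against 42.7% of all tested genes (22.8% higher, 19.9% lower). The largest was that of Adora2b, at a log2 difference of -2.08 (adjusted p = 2.98e-05). Adora1 followed at -0.92, Ada at -0.92, Entpd1 at -0.84 and Adora2a at -0.84 (adjusted p = 0.00109). Adk and Dpp4 differed the other way, at 0.40 and 0.38. Nt5e (-0.57, adjusted p = 0.0565) and Slc29a1 (-0.21, adjusted p = 0.0784) did not pass. For Adora2a the difference was -0.49 (adjusted p = 0.0860) within the mice numbered in the 500s and did not pass there. The Nt5e difference was -0.075 (adjusted p = 0.768) within the same mice.

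Other genes of purine signalling were grouped in 7 lists with 63 genes, of which 55 were tested. With cisplatin 28 were higher, 18 lower and 9 did not pass, against 34.6% higher and 35.9% lower among all tested genes. Scaled by library size alone, the cisplatin split was 34 higher and 11 lower. With KW6002 added to cisplatin 13 were higher, 24 lower and 18 did not pass, against 28.6% higher and 27.2% lower among all tested genes. Of these 55 genes, 1 (Entpd3) met the count filter only through the cisplatin libraries, and without it the counts were 27 higher and 18 lower, and 13 higher and 23 lower. With KW6002 alone, 0 of 55 passed. The median log2 fold change over the 55 genes was 0.28 for cisplatin against vehicle and -0.17 for both drugs against cisplatin. Within each list the gene with the largest change is named for either comparison.

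ATP reaches the outside of cells through channels and vesicles, and all 3 tested genes of ATP release were higher with cisplatin. Panx1, a channel opened in dying cells, rose from 0.706 ± 0.222 to 5.83 ± 1.72 CPM (SD, n = 5 each, log2 fold change 3.05, adjusted p = 3.58e-09). It was 1.53 ± 0.238 CPM with both drugs (n = 6, log2 fold change -1.93 against cisplatin, adjusted p = 1.01e-06). Among 12 tested P2 receptors, which bind ATP and other nucleotides, 7 were higher and 4 lower with cisplatin. P2rx3 had the largest change and is 1 of the 4, at 2.93 lower on the log2 scale and 0.124 ± 0.0824 CPM after cisplatin. When KW6002 was added it was 1.03 higher on that scale. It was above the count filter in 5 of 5 vehicle and 6 of 6 KW6002 libraries. In cisplatin libraries this held for 0 of 5, and in doubly treated libraries for 2 of 6. Because it entered the test through the mice without cisplatin, where it is high, its values are given without a test.

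Of the 7 other ectoenzyme genes of ATP and AMP hydrolysis, 3 were higher and 4 lower with cisplatin. Entpd3, a relative of CD39, had the largest change and is 1 of the 3. It was 0.179 ± 0.115 CPM in vehicle, 0.958 ± 0.244 CPM in cisplatin and 0.230 ± 0.222 CPM in doubly treated kidneys. Because it was above the count filter in 5 of 5 cisplatin libraries and in 2 of the other 17, it entered the test through the group where it is high, and its values are given without a test. Entpd8, another relative, is 1 of the 4 lower genes and was singled out after its values were seen, because it went opposite to Entpd3. It was 18.6 ± 2.13 CPM in vehicle, 5.96 ± 1.37 CPM in cisplatin and 20.8 ± 1.04 CPM in doubly treated kidneys. The log2 fold changes were -1.64 and 1.81 (edgeR, adjusted p = 4.16e-12 and 6.24e-12).

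Inside the cell, 4 of 7 tested genes of AMP hydrolysis and deamination were higher and 2 lower with cisplatin. The largest change was in Nt5c1a, a cytosolic nucleotidase that makes adenosine from AMP, from 0.423 ± 0.231 to 1.70 ± 0.413 CPM (log2 fold change 2.01, adjusted p = 1.01e-06). Ampd3, an AMP deaminase, showed the largest difference between both drugs and cisplatin (60.3 ± 9.08 against 142 ± 29.8 CPM, log2 fold change -1.24, adjusted p = 6.39e-09).

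Among 9 genes of purine breakdown and salvage, 5 were higher and 2 lower with cisplatin. Pnp2, a purine nucleoside phosphorylase, rose from 0.268 ± 0.157 to 1.83 ± 0.413 CPM (log2 fold change 2.78, adjusted p = 3.76e-08) and was 0.604 ± 0.241 CPM with both drugs (log2 fold change -1.59, adjusted p = 1.69e-05). It is a close copy of the neighbouring Pnp, so its reads are uncertain. Xdh, the xanthine oxidoreductase gene that ends the path at uric acid, was named after its values were seen for its abundance: 56.5 ± 11.1 CPM in vehicle, 297 ± 19.2 CPM in cisplatin and 143 ± 19.6 CPM in doubly treated kidneys (log2 fold changes 2.39 and -1.06, adjusted p = 3.04e-13 and 1.47e-07).

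All 4 tested genes of other nucleoside transporters were lower with cisplatin, where Slc29a1 did not pass. Slc28a2, a concentrative transporter, fell by 1.77 on the log2 scale (adjusted p = 6.99e-04), from 1.31 ± 0.936 to 0.376 ± 0.0957 CPM, with a wide spread in vehicle mice and no call within the mice numbered in the 500s (-0.75, adjusted p = 0.0716). Slc29a3, a lysosomal transporter, showed the largest difference between both drugs and cisplatin (95.5 ± 7.30 against 49.9 ± 3.81 CPM, log2 fold change 0.94, adjusted p = 3.19e-11). Of 13 tested G protein and adenylyl cyclase genes, 6 were higher and 2 lower with cisplatin, and 1 was higher and 8 lower with both drugs than with cisplatin. Gnal, a stimulatory alpha subunit, had the largest called change in either comparison, with 1.68 ± 0.346 CPM in vehicle, 5.50 ± 0.978 CPM in cisplatin and 2.74 ± 0.609 CPM in doubly treated kidneys (adjusted p = 1.53e-08 and 1.82e-05).

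**Figure D4:**
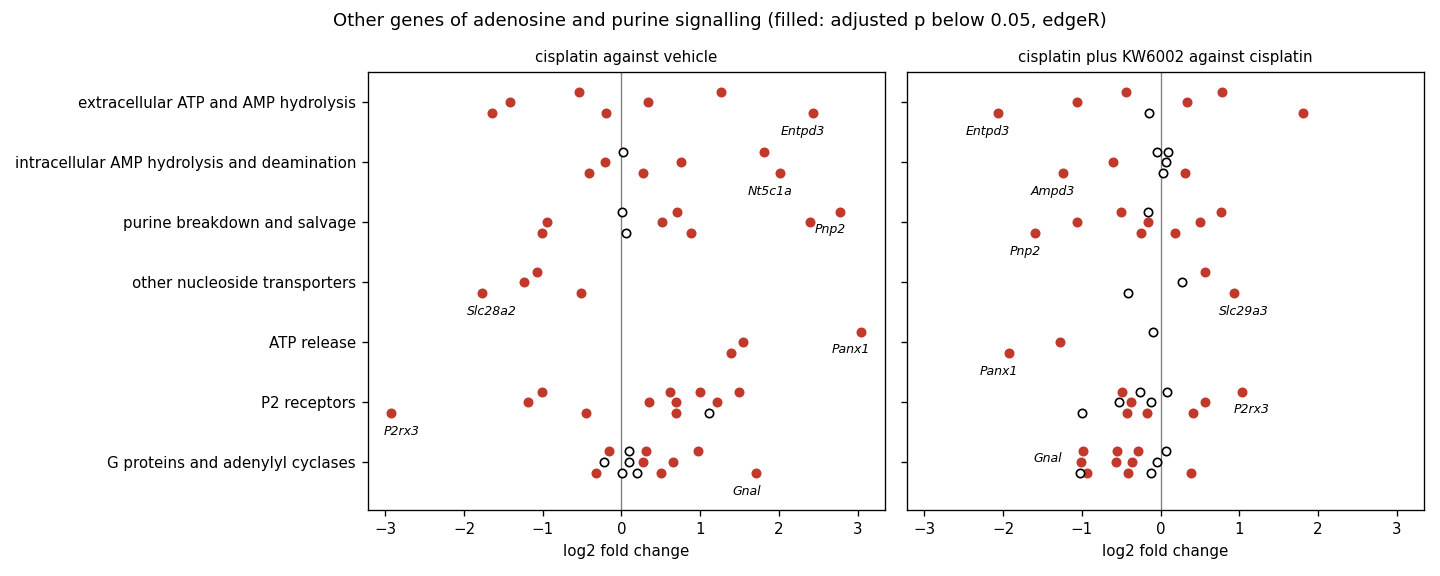
Log2 fold change (horizontal axis) of the 55 tested genes in 7 lists of purine signalling (vertical axis), on the left for cisplatin against vehicle and on the right for cisplatin plus KW6002 against cisplatin. Filled points have an adjusted p below 0.05 in edgeR, and the named gene is the largest called change of its list. Entpd3 was in the test only through the cisplatin libraries, and P2rx3 only through the mice without cisplatin. The 3 genes of ATP release lie to the right of 0 with cisplatin, from 1.40 to 3.05, and the 4 other nucleoside transporters to the left, from -0.52 to -1.77.

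To see which genes had a profile over the 22 mice most like that of a member, each gene was centred on its mean log2 CPM in vehicle mice and compared by the root mean square difference across the libraries, over 14222 genes. The libraries share depth and group structure, so the distances describe likeness only. Adora2a was closest to Plod2 (0.139 log2 units), a collagen lysyl hydroxylase, followed by Pml (0.168) and Eng (0.181), an endothelial co-receptor. Plod2 had log2 fold changes of 0.84 and -0.77 in the first and second comparison. The nearest gene of Adora1 was Hap1 (0.173), of Adora2b Fblim1 (0.325), of Entpd1 Cyp4f17 (0.130), of Nt5e Capn2 (0.223) and of Ada Zbtb38 (0.191). Adk was nearest to Lrpprc (0.0739), a regulator of mitochondrial mRNA, and Dpp4 to Man2b1 (0.0513), a lysosomal mannosidase.

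Whether Adora2a mRNA went with the degree of kidney injury was examined only within the 6 mice given both drugs. The mice of different groups form separate clusters and were not pooled. The 5 cisplatin mice, in which Adora2a had a coefficient of variation of 15.2%, were not examined. Over these 6 mice log2 CPM of Adora2a and Lcn2 had a Pearson r of 0.166 (exact permutation p = 0.775) and a Spearman rho of -0.0286 (exact permutation p = 1). With Havcr1, which encodes kidney injury molecule 1, r was -0.314 (exact permutation p = 0.544) and rho -0.486 (exact permutation p = 0.356). Neither of the 2 relations passed after adjustment (adjusted p = 0.775 for both r values). Adora2a varied little among these mice, from 117 to 165 counts with a coefficient of variation of 8.42%. With 6 mice and so small a spread, a relation could have been missed. Without the 2 mice farthest from the median of the marker, r was -0.692 for Lcn2 and -0.469 for Havcr1 over the 4 mice left, so that the sign for Lcn2 rested on those mice.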

How the data were processed

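The deposited table holds raw counts per gene for 22 kidney libraries. The authors made TruSeq Stranded mRNA libraries, aligned single-end reads to mm10 with STAR, kept unique alignments and counted them with HTSeq 0.6.1p1 in union mode (methods of the study and processing notes of the submitters). Whether the counting used strand is not given in the sources used here, so reads of a gene and an overlapping gene on the other strand may not be told apart. The 66 unnamed columns of the table were empty.

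Groups came from the sample titles. Counts were fitted in edgeR 4.0.16 (R 4.3.3) with TMM scaling, filterByExpr, 1 mean per group over all 22 libraries and the quasi-likelihood test, with Benjamini-Hochberg adjustment over 17131 genes. DESeq2 1.42.0 was an alternative. Shares, sums and correlations were tested by exact permutation (scipy 1.17.1). CPM per kb used exon lengths of GENCODE vM21, whose build is mm10, whereas the counts used other Ensembl releases. The members and all gene lists were chosen with earlier results of these data known. The text names the 10 members, in each other list the gene with the largest change past an adjusted p of 0.05 for cisplatin against vehicle and for both drugs against cisplatin, and the genes most like a member. Entpd8 and Xdh were added after their values were seen. Alternatives were another scaling, filter, tool, threshold and set of samples, a replicate block, the label series as a covariate, and each mouse left out. Alternatives for the receptor shares and the other gene lists were chosen after seeing the data.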

Additional observations from a re-analysis of the deposited data

Results flagged for a closer look

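In 4 of the 40 groups of values (10 members in 4 groups), 1 mouse stood apart from the rest by Dixon's criterion at the 95% level, which by chance flags about 1 in 20 groups. Adora2b was 5.76 CPM in cisplatin plus KW6002 mouse 3, where the other 5 mice lay between 2.20 and 2.76 CPM. Adora1 was 16.6 CPM in KW6002 mouse 3, against 11.7 to 12.8 CPM in the other 5. Nt5e was 132 CPM in cisplatin mouse 5, the lowest of its group, against 168 to 182 CPM. Adora3 was 0.293 CPM (11 reads) in cisplatin mouse 3, against at most 3 reads in the other 4 mice.

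The effect of KW6002 on 7 members differed between mice with and without cisplatin by the interaction test in edgeR, which 42.7% of all tested genes passed. The log2 differences were -0.92 for Adora1, -0.84 for Adora2a, -2.08 for Adora2b, -0.84 for Entpd1, -0.92 for Ada, 0.40 for Adk and 0.38 for Dpp4. That of Adora2a was -0.49 (adjusted p = 0.0860) within the mice numbered in the 500s, where it did not pass.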

How the results depend on the processing

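The counts of members past an adjusted p of 0.05 were 8, 8, 0, 7 and 7 for cisplatin against vehicle, both drugs against cisplatin, KW6002 against vehicle, both drugs against vehicle and the interaction. They stayed within 1.5 times under every alternative except the stricter thresholds, which left 5, 1, 0, 2 and 1. With 1 mouse left out they were 8, 8, 0, 6 to 7 and 7 to 8. The label series as a covariate left 5 members for both drugs against vehicle. Nt5e (0.32, edgeR adjusted p = 0.157) and Dpp4 (-0.12, adjusted p = 0.0881) lost their calls there. Over all genes, KW6002 against vehicle gave 3 calls in edgeR, 99 in DESeq2, 40 with the label series as a covariate, 8 within the 500s and 0 when only those groups were fitted.

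Library size alone reversed Slc29a1 for cisplatin against vehicle (0.19), and Dpp4 (0.0083) and Slc29a1 (0.077) for both drugs against vehicle. The label series as a covariate brought Slc29a1 for cisplatin against vehicle to 0.0030. Within the 500s, KW6002 against vehicle was -0.20 for Adora2a, 0.015 for Dpp4 and -0.55 for Nt5e (-0.055 over all mice), and Adora2a for both drugs against vehicle was -0.017. Leaving out 1 mouse gave -0.071 to 0.026 for Slc29a1 with cisplatin, and, for KW6002 against vehicle, -0.028 to 0.17 for Adora1, -0.11 to 0.077 for Ada, -0.22 to 0.11 for Nt5e and -0.091 to 0.028 for Entpd1. The Lcn2 relation went from 0.166 to -0.692 without the 2 outermost mice. The Nt5e interaction, at an adjusted p of 0.0565, passed in DESeq2 (-0.58, adjusted p = 0.0414), with library size only (-0.65, 0.0317), with at least 10 counts in every library (-0.58, 0.0474), with the label series as a covariate (-0.58, 0.0463) and without any of 4 mice, but was -0.075 (0.768) within the 500s. That of Slc29a1 passed with library size only (-0.29, adjusted p = 0.0203) and without either of 2 mice. The causes were not tested.

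With the replicate number as a block (replicate block), the counts were 8, 8, 0, 7 and 7, and Entpd1 for KW6002 against vehicle was 0.012. Of the members' calls none changed. Same-numbered mice of different groups correlated between -0.175 and 0.405 over 31 pairs, 7 of them over 0.1. Vehicle and KW6002 mice of the same number stood at 0.405, -0.153, 0.132, 0.155 and 0.194. In these groups the same-numbered mice also share a label series, so these values cannot decide whether the numbers pair the mice.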
